A study of Homo sapiens with 24 samples.

Results

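Day 30 cerebral organoids labelled sh4 were compared with day 30 cerebral organoids labelled NC, with 3 libraries in each group. These 6 libraries were chosen by their labels from the 24 samples of the series, and 19704 genes passed the count filter and were tested. Both groups came from H9, a widely used line of human embryonic stem cells. These cells were infected with lentivirus at a multiplicity of infection of 20 and selected with puromycin at 1 µg/ml. They were then turned into organoids by a modified Lancaster protocol. The NC organoids carried a scrambled short hairpin RNA and are labelled wild type. The sh4 organoids carried a hairpin against KDM2A and are labelled as a KDM2A knockdown, with an agent named as siRNA-4. The series also holds 3 organoid libraries with a second hairpin, sh1, and neural progenitor cells (NPCs) of the same 3 kinds with 5 libraries each. Whether the replicates are separate cultures is not stated in the labels, so the p-values measure the spread between these libraries, which may be technical. Organoids of a group may thus descend from 1 infected culture.

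KDM2A encodes a JmjC-domain enzyme that removes methyl groups from lysine 36 of histone H3, and its CXXC zinc finger binds unmethylated CpG-rich DNA. Cerebral organoids are cultures grown in suspension as round tissue in which pluripotent cells pass through a neuroectoderm stage and form neural tube-like epithelium with radial glia around a lumen. Forebrain progenitors and newborn neurons are the usual content at this age. Epithelium of the choroid plexus, mesenchyme and endoderm can appear when patterning goes another way.

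The targeted gene was measured first, because it checks the label. KDM2A (chromosome 11, 67119269 to 67258087, plus strand, GRCh38) was read at 99.9, 105 and 96.8 CPM, the count scaled to the size and makeup of the library, in the NC libraries. It was read at 105, 95.5 and 103 CPM in the sh4-labelled libraries, so the groups overlapped. The means were 100.5 ± 4.0 and 101.0 ± 4.9 CPM (SD, n = 3 each). The fitted difference was 0.01 on the log2 scale, with a 95% interval from -0.14 to 0.16 and an adjusted p of 0.926 (edgeR). KDM2A was thus not lower in the libraries labelled sh4 than in NC. The 3 libraries labelled sh1 had 110 ± 7.0 CPM. Scaling by library size alone, without correction for the makeup of the RNA, moved the difference to -0.27 (adjusted p 0.0087). In NPCs the same label went with a lower KDM2A level, from 186 ± 15.2 CPM in NC to 95.1 ± 4.2 CPM in sh4 (SD, n = 5 each), on a scale set by the listed genes only. All differences below are therefore differences between organoids labelled sh4 and organoids labelled NC, and no KDM2A mRNA loss accompanied them.

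**Figure D1:**
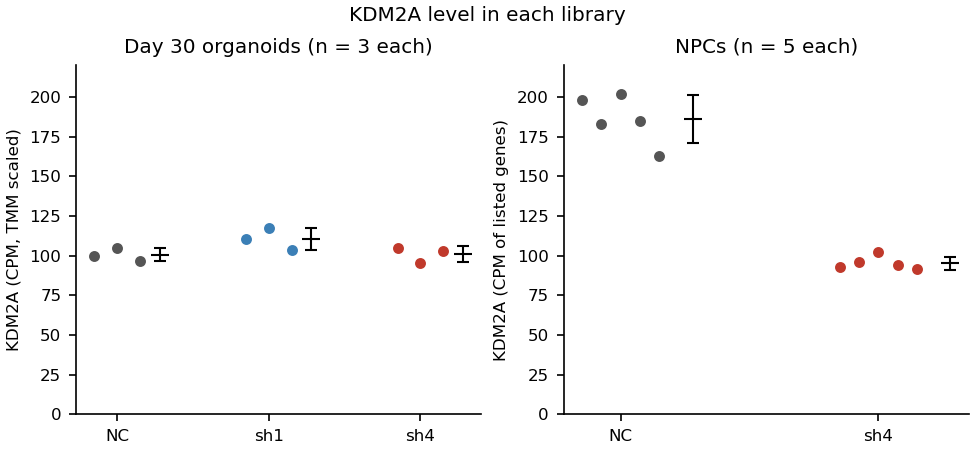
KDM2A in CPM (linear axis from 0) in each library, as points, with the mean and SD beside them. The 3 sh4-labelled organoid libraries lie between 95.5 and 105 CPM, within the range of the NC organoids or close to it, whereas the 5 sh4 NPC libraries lie between 91.3 and 102 CPM, all below the NC NPCs.

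The 9 organoid libraries held 15899243 to 18853737 counts each. The first principal component carried 70.3% of the variance and placed the NC libraries at -128 to -111, sh1 at 3.0 to 18.1 and sh4 at 91.8 to 128. The 10 most abundant genes took 11.8% to 14.4% of the counts in the sh4-labelled libraries and 5.38% to 5.81% in NC. Genes of the mitochondrial chromosome took 5.05% to 6.02% and 3.07% to 3.50%. Replicates of the sh4 label differed more from each other than NC replicates did: the chi-square per degree of freedom was 14.1 to 50.4 between sh4 pairs and 5.19 to 6.39 between NC pairs. Replicate 1 of sh4 stood farthest from the others. In the scaling factors, NC libraries were between 1.07 and 1.08 and the sh4-labelled libraries between 0.818 and 0.929. Scaling without the mitochondrial genes and the 10 most abundant genes, added after seeing the data, gave 6978 called genes, 6919 of them shared with the 6998 of the fit reported here.

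Of the 19704 genes, 6998 (35.5%) passed an adjusted p under 0.05 with a log2 difference of at least 1, the thresholds that the study's design text gives. A total of 3948 (20%) were higher and 3050 (15.5%) were lower in the sh4-labelled organoids. The increases were also the larger: 453 genes rose and 147 fell by at least 5 on the log2 scale. Higher genes made up 56.4% of the calls. Scaling by library size alone lowered that share to 43.3% (3194 higher and 4181 lower) and moved the median of all genes from -0.01 to -0.28 on the log2 scale. The NC and sh4 libraries did not overlap, with sh4 higher, for 36.6% of all genes tested, and with sh4 lower for 36.4%. Among 15962 protein-coding genes, 3351 rose and 2213 fell. Among 1975 long intergenic and antisense RNA genes, 362 rose and 436 fell. The increases reached from liver-type secreted proteins through connective tissue, choroid plexus and innate immune genes, and the decreases from forebrain regulators through neuronal and pluripotency genes.

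**Figure D2:**
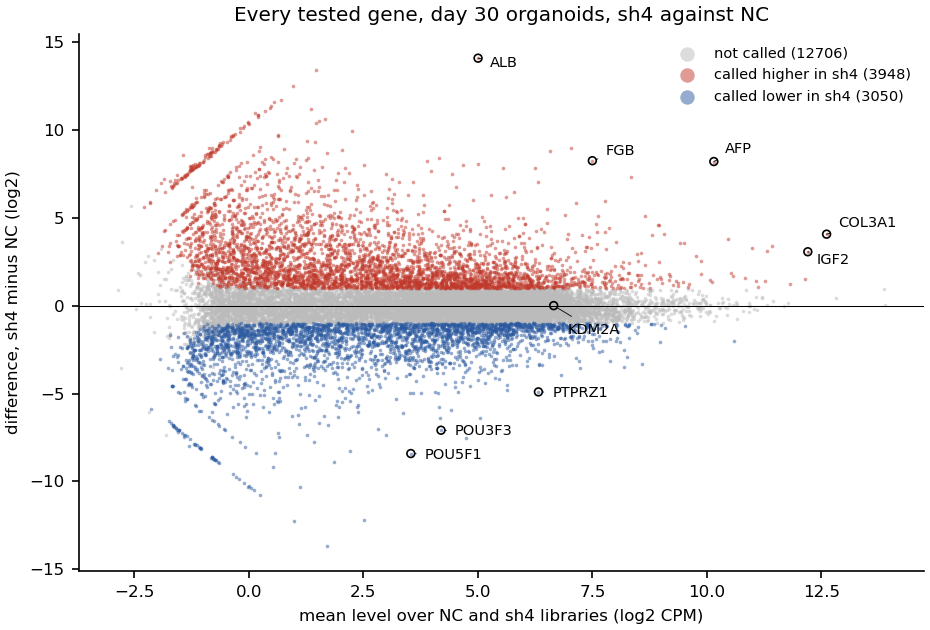
Each point is 1 of the 19704 tested genes, with its mean level over the 6 libraries in log2 CPM on the x axis and the sh4 minus NC difference (log2) on the y axis. Red points (3948) were called higher and blue points (3050) lower. KDM2A lies on the zero line. The diagonal streaks on the left are genes with no or almost no counts in 1 group, whose fitted difference depends on the fit's prior count.

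The 15 genes with the largest increase at a mean level of at least 3 log2 CPM were ALB, FGA, FGG, FABP1, FGB, SLPI, AFP, APOA4, APOC3, SERPINA1, AHSG, UGT2B11, PLG, TTR and ORM1. Apart from the epithelial protease inhibitor SLPI, most of them are best known from fetal liver or yolk sac endoderm. AFP encodes alpha-fetoprotein, the main plasma protein of the fetus. FGA, FGB and FGG encode the 3 chains of fibrinogen, SERPINA1 encodes alpha-1 antitrypsin, and APOA4 and APOC3 encode lipoprotein components. TTR, which carries thyroid hormone, is made in choroid plexus as well as in liver. The 15 genes with the largest decrease were POU5F1, DLX6-AS1, POU3F3, ISLR2, LINC00461, MIR9-1HG, FUT9, GNRH1, LHX2, GAD1, TDGF1, DLX1, DLX2, POU3F2 and PTPRZ1. Most act in the developing forebrain, as homeobox or POU-domain transcription factors (LHX2, DLX1, DLX2, POU3F2, POU3F3), as a GABA-making enzyme (GAD1) or as a radial glial phosphatase (PTPRZ1). POU5F1 and TDGF1 belong to the pluripotent state. No source used here gives the strand setting of the counting, so the reads of DLX6-AS1, LINC00461 and MIR9-1HG cannot be told apart from those of overlapping genes. UGT2B11 and ORM1 belong to families of near-identical copies, and their reads may be split among them.

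The 250 bases before the annotated RefSeq start (GRCh38.p14) are shown for 4 of the genes that rose and 2 that fell, chosen after their letters were seen, to show windows poor and rich in CpG. Capitals mark each CG pair, each TATAAA and each GTTAAC, both strands searched. TATAAA is the TATA box core, and GTTAAC is a variant of the repeat unit in the site that the liver factor HNF1 binds.
AFP (chr4:73435971-73436220, plus strand): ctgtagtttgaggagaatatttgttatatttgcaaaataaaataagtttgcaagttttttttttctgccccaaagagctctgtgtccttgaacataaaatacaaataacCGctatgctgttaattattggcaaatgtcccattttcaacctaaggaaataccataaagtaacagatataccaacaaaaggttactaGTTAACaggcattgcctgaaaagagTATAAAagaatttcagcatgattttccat
FGB (chr4:154562730-154562979, plus strand): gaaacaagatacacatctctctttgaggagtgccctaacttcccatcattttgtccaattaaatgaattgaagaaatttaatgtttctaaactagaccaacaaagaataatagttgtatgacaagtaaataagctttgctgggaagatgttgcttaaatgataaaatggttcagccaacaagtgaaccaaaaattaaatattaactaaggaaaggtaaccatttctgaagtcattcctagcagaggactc
FGG (chr4:154612657-154612906, minus strand): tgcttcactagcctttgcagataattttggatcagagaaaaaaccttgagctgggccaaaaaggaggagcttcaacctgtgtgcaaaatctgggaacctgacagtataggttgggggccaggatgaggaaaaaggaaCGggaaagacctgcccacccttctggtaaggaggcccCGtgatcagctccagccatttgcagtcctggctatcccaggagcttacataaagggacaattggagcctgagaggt
SERPINA1 (chr14:94390636-94390885, minus strand): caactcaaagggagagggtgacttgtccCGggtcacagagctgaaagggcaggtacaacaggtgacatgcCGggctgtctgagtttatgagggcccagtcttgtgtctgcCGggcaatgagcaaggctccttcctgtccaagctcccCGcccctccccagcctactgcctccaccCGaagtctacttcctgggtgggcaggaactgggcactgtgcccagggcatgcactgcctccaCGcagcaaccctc
LHX2 (chr9:124011518-124011767, plus strand): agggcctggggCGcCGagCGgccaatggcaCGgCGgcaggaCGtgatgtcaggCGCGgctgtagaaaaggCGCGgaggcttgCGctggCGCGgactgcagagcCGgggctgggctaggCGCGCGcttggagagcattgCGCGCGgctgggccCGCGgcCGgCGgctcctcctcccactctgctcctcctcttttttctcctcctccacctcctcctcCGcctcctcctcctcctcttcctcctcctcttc
PTPRZ1 (chr7:121872911-121873160, plus strand): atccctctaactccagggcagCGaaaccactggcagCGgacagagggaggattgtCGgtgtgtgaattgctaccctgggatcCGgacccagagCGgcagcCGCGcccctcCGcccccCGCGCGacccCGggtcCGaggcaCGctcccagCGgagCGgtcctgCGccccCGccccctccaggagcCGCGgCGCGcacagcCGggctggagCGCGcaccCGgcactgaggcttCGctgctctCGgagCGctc
The AFP window held 1 CG pair, 1 TATAAA and 1 GTTAAC, the FGB window no CG pair, the FGG window 2 and the SERPINA1 window 6. The LHX2 and PTPRZ1 windows held 25 and 29 CG pairs and neither motif. RefSeq windows were found for 12 of the 15 genes at the top, with a median of 2.5 CG pairs (range 0 to 6), against a median of 11 over the 27305 windows in the table. TATAAA was present in 4 of these 12 windows (33.3%) and in 11.1% of all windows, and GTTAAC in 1 of 12 (8.33%) and 2.28%. The 15 genes at the bottom had 11 windows, too few of the set for a summary, and single windows ran from 3 CG pairs (DLX6-AS1) to 29 (PTPRZ1). Only 72.6% of all called genes with a symbol had a window, under the 80% set as a minimum, so no comparison over all calls was made. A match to these letters describes the window and no more. Only 1 window was taken per gene. Whether these organoids used that start, for SERPINA1 or any other gene, was not tested.

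The liver-type list was nearly uniform. Of 37 genes of hepatic endoderm and plasma proteins, 36 rose and none fell, with a median difference of 5.94 against -0.01 over all genes tested. Their summed level was 527 to 1161 CPM in NC and 107700, 48230 and 30820 CPM in the sh4-labelled replicates. AFP stood at 23.3, 239 and 26.2 CPM in NC and at 49878, 22029 and 13378 CPM in the sh4-labelled libraries. It took 4.07%, 2.04% and 1.23% of all counts there, the highest mean share of any gene. That rank rests on replicate 1, since COL3A1 took more in replicate 2 (2.08%) and in replicate 3 (2.57%). The groups were far apart, yet each was uneven: replicate 1 was highest in sh4 and replicate 2 in NC. The fitted AFP difference was 8.21 (SE 1.17, adjusted p 1.6e-04), and it became 10.16 without NC replicate 2 and 7.52 without sh4 replicate 1. ALB, albumin, had 1, 7 and 4 counts in the NC libraries and 113194, 47459 and 30876 in the sh4-labelled ones. FGB rose from 3.75, 21.4 and 11.8 CPM to 6486, 2993 and 1825 CPM, a difference of 8.25 (SE 0.80, adjusted p 1.3e-05). The plasma adhesion protein VTN rose from 4.31, 10.5 and 7.51 to 1580, 799 and 537 CPM (7.03, adjusted p 8.9e-06). In all of these, sh4 replicate 1 was highest and replicate 3 lowest. APOH, named here after its values were seen, had no count in NC and 3771 in sh4, and was at least 1380-fold higher against a floor of 3 counts over the NC group. Without NC replicate 2, the differences of APOA4, APOC3, AHSG, SERPINA1, PLG, FGG, TTR, FABP1, ORM1, ALB and FGB also moved up by over 1.5-fold, to 11.09 for APOC3. Without sh4 replicate 1, those of ALB, FGA, FGB, FGG, APOC3, SERPINA1, AHSG, UGT2B11, PLG and ORM1 moved down by over 1.5-fold, to 6.47 for ORM1. The number of list members called higher ran from 32 to 36.

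**Figure D3:**
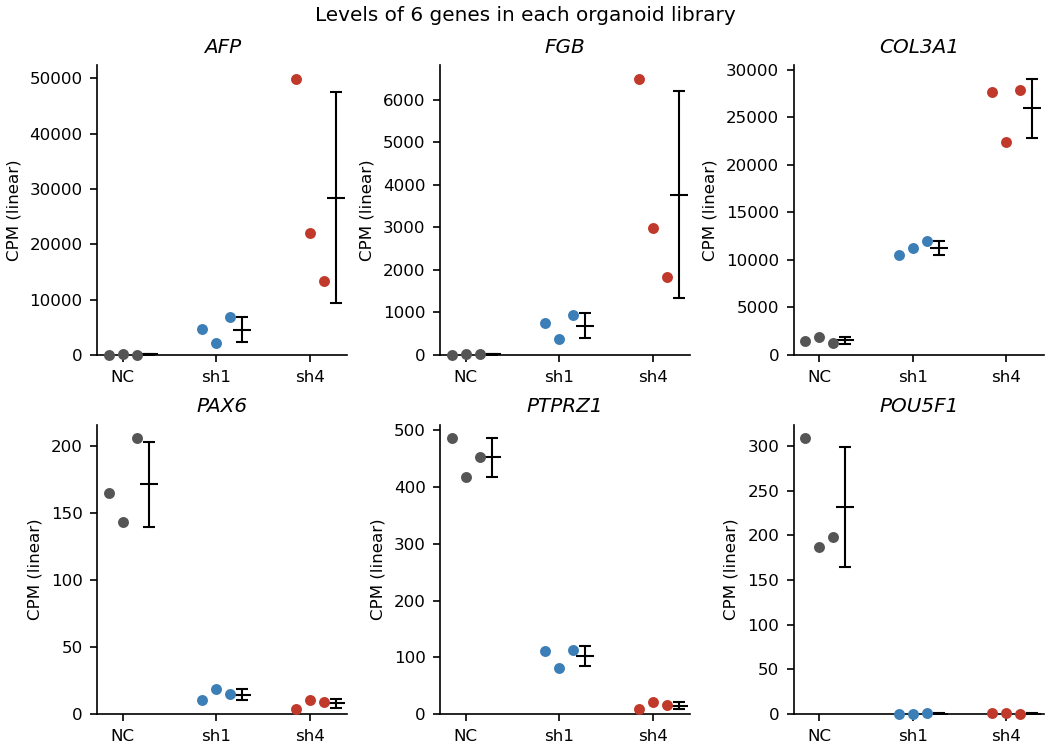
Levels in CPM (linear axes from 0) of 6 genes in the 9 organoid libraries, as points, with mean and SD beside each group of 3. AFP and FGB are highest in sh4 replicate 1 and uneven within the sh4 label, whereas COL3A1 lies between 22380 and 27881 CPM in all 3. POU5F1 is near 0 in both the sh1 and the sh4 libraries.

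Of 21 blood and macrophage genes, 16 rose and 2 fell (median 5.03). CD68, a lysosomal protein of macrophages, stood at 1.93, 1.33 and 0.76 CPM in NC and at 77.0, 50.4 and 48.0 CPM in sh4, a difference of 5.43 (SE 0.51, adjusted p 1.1e-05). CD14, AIF1 and PTPRC, the last encoding the leukocyte antigen CD45, rose by 5.03, 4.30 and 6.68. AIF1 was at 5.23 without NC replicate 1, and PTPRC at 7.56 without NC replicate 3. PTPRC had 3 counts in all NC libraries together and 318 in sh4, a ratio of 116 with a 95% counting interval from 39.5 to 568. The complement genes C1QA, C1QB and C1QC, named after their values were seen, had no counts in NC and at least 178-fold, 236-fold and 385-fold higher levels in sh4 against the same floor. The embryonic globin gene HBE1, also named after its values were seen, stood at 1.44, 18.8 and 7.74 CPM in NC and at 3.90, 1.18 and 0.72 CPM in sh4. It was called lower (-2.28, SE 0.88, adjusted p 0.041), although the groups overlapped. The lower count of this list was 1 without NC replicate 2 or 3 or without sh4 replicate 2 or 3, and 3 without sh4 replicate 1.

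Mesenchyme and matrix genes were high in all 3 sh4-labelled libraries. Of 34 tested members, 28 rose and none fell (median 2.51). The summed level of the list was 8334 to 10360 CPM in NC and 62350 to 75410 CPM in the sh4-labelled libraries. COL3A1, the chain of type III collagen, was read at 1429, 1934 and 1266 CPM in NC and at 27651, 22380 and 27881 CPM in sh4. The difference was 4.07 (SE 0.17, adjusted p 2.9e-07), with far less spread among sh4 replicates than AFP showed. Both chains of type I collagen rose, COL1A1 by 3.26 (SE 0.16) and COL1A2 by 3.13 (SE 0.18), and SPARC, a matrix glycoprotein, by 3.42 (SE 0.19). The small proteoglycan LUM rose from 197, 255 and 188 to 2868, 2145 and 2536 CPM. DES, the intermediate filament of muscle and pericytes, rose from 11.3 ± 0.31 to 120 ± 7.6 CPM (3.41, SE 0.11). Basement membrane genes moved less, with 9 of 16 higher and none lower (median 1.26), led by the laminin chain LAMB1 (2.32, SE 0.13). Endothelial genes gave 12 of 17 higher and 1 lower (median 1.74). The vessel genes CLDN5 and ERG reached 15.9 ± 2.9 and 11.1 ± 1.9 CPM from 3.26 ± 1.0 and 2.58 ± 0.52 CPM. The lower gene was VWF, which fell from 2.86 to 1.26 CPM (-1.18, SE 0.26). CDH5 and SOX18 were called higher although their NC and sh4 libraries overlapped. VWF, CDH5 and SOX18 were named after their values were seen. In these pooled tissues, more cells of a type and more RNA per cell cannot be told apart.

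Transcription factors of mesoderm and endoderm did not move as 1 group. Of 21 tested, 11 rose and 7 fell. OSR1, a regulator of intermediate and lateral mesoderm, rose from 4.25, 4.16 and 4.63 to 72.2, 60.5 and 71.7 CPM (3.97, SE 0.14). FOXF1 (2.11) and GATA6 (1.61) rose. EOMES, which acts in early mesendoderm and again in cortical intermediate progenitors, fell by 6.06 (SE 0.57, adjusted p 1.1e-05), or by 6.97 without sh4 replicate 3. TBXT, the primitive streak gene, went from 97 counts in NC to none in sh4 and was at least 29.4-fold lower; it was named after its values were seen. Among muscle genes 11 of 22 rose and 4 fell, with 7 higher under library size alone. TBX5, a heart and forelimb factor, rose from 0.06, 0.21 and 0.12 to 8.77, 6.94 and 12.0 CPM (6.08, SE 0.41) and the troponin TNNT2 by 3.47 (SE 0.22), while cardiac actin ACTC1 fell by 3.38 (SE 0.22).

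Roof plate, cortical hem and choroid plexus genes rose in 23 of 30 cases and fell in 1 (median 2.12). HTR2C, a serotonin receptor of choroid plexus epithelium, went from 5.47, 4.96 and 6.69 to 55.3, 118 and 114 CPM (4.08, SE 0.30). FOLR1, a folate receptor of the same epithelium, rose from 1.22, 1.28 and 1.23 to 14.2, 19.1 and 21.1 CPM. PLTP (2.61) and SULF1 (3.46) rose as well. Unlike AFP, HTR2C and FOLR1 were lowest in sh4 replicate 1. Epithelial genes gave 16 of 25 higher and none lower (median 1.36). The keratins KRT8 and KRT18 rose by 1.55 and 1.62, and the tight junction gene CLDN4 rose from 18.4 ± 5.4 CPM to 152, 98.4 and 82.8 CPM. SERPINF1, a secreted factor of pigment epithelium and mesenchyme that stood on the eye list, rose from 30.1, 49.6 and 35.7 to 1140, 858 and 920 CPM (4.66, SE 0.22). Of the 17 tested eye genes, 7 rose and 4 fell, against 20% and 15.5% of all genes. Astroglial and oligodendrocyte genes gave 9 of 15 higher and 1 lower. Those named by the smallest adjusted p were SPARCL1 (4.39), the proteoglycan CSPG4 (1.74), MBP (1.72) and the gap junction gene GJA1 (1.29), of which SPARCL1 and CSPG4 are also known from vessels and pericytes. The lower count was 3 without sh4 replicate 2.

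The forebrain programme went the other way. Of 18 tested genes of dorsal forebrain and cortex, 14 fell and 1 rose (median -2.42), and of 16 genes of ventral forebrain and hypothalamus, 12 fell and none rose (median -3.75). PAX6, a regulator of cortical radial glia and the eye, fell from 165, 143 and 206 to 4.22, 10.9 and 8.93 CPM (-4.41, SE 0.32). LHX2, a cortical selector gene, fell from 59.2, 62.6 and 54.9 to 0.78, 1.59 and 1.98 CPM (-5.33, SE 0.62). DLX1 and DLX2, which direct GABAergic neurons of the ganglionic eminences, fell by 4.98 (SE 0.23) and by 4.97 (SE 0.20). GSX2, a ventral progenitor factor, had 1920 counts in NC and 1 in sh4. Without sh4 replicate 2, which held this count, GSX2 was at 0 in sh4. NKX2-1 and OTP, of the ventral forebrain and hypothalamus and named after their values were seen, had 89 and 414 counts in NC and none in sh4, at least 27.0-fold and 126-fold lower. These 3 ventral markers, GSX2, NKX2-1 and OTP, were thus at 1 or 0 counts in the sh4-labelled organoids. The 1 higher dorsal gene was not called without sh4 replicate 3 or with library size alone.

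Genes of more caudal identity did not share this direction. Of 31 midbrain, hindbrain and HOX genes, 11 rose and 4 fell (median 0.33). HOXC6 rose from 1.05, 1.92 and 1.53 to 21.8, 27.4 and 25.7 CPM (4.05, SE 0.19). HOXC4 and HOXB3, which mark cervical and hindbrain levels and also trunk mesoderm, rose by 3.78 (SE 0.41; 4.46 without NC replicate 2) and 1.54 (SE 0.14). GBX2, of the anterior hindbrain, fell by 4.99 (SE 0.47). The lower count was 1 without NC replicate 3. Neural crest genes gave 3 higher and 3 lower of 15, against 20% and 15.5% of all genes, with 5 lower without sh4 replicate 2. SNAI2 and TWIST1, which also act in mesenchyme, rose by 1.85 (SE 0.12) and 3.18 (SE 0.41).

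Progenitor genes fell with the forebrain genes. Of 25 neural progenitor and radial glia genes, 19 fell and 2 rose (median -2.01). SOX1 fell from 58.9, 51.6 and 53.4 to 2.40, 2.71 and 3.18 CPM (-4.30, SE 0.20) and SOX3 from 101, 78.9 and 98.3 to 2.21, 5.71 and 4.86 CPM (-4.43, SE 0.25). Both encode SoxB1 factors that keep neural progenitors undifferentiated. PTPRZ1 fell from 486, 418 and 453 to 8.25, 20.6 and 16.3 CPM (-4.90, SE 0.29). In the Notch pathway, through which progenitors keep their neighbours from differentiating, 11 of 24 genes fell and 1 rose (median -0.95). The receptor NOTCH1 fell by 1.52 (SE 0.07), the ubiquitin ligase MIB1 by 1.29 (SE 0.08), and the targets HES4 and HES5 by 3.21 (SE 0.14) and 5.65 (SE 0.33). HES5 stood at 36.2, 29.4 and 45.5 CPM in NC and at 0.32, 1.24 and 0.60 CPM in sh4, and its difference was -6.28 without sh4 replicate 2. The higher call of the Notch list was lost without that library and with library size alone.

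Neuronal genes fell in 28 of 33 cases and rose in none (median -2.54). The summed level of the list was 6379 to 6934 CPM in NC and 525, 2000 and 973 CPM in the sh4-labelled replicates. Replicate 1 was lowest, as it was highest for AFP. DPYSL3, a growth cone protein, went from 916, 806 and 857 to 80.5, 163 and 97.3 CPM (-2.92, SE 0.23). The proneural factor NEUROG2 went from 14.7, 16.9 and 18.9 to 0.13, 0.53 and 0 CPM (-6.19, SE 0.51; -7.92 without sh4 replicate 2). MYT1L fell by 4.77 (SE 0.37; -5.59 without sh4 replicate 3) and ONECUT2 by 2.91 (SE 0.21). Of 36 synapse and transmitter genes, 27 fell and 1 rose (median -2.29). GAD1 was near 2 CPM in all sh4-labelled libraries (2.08, 2.35 and 2.64) and at 86.1, 67.8 and 70.7 CPM in NC (-4.98, SE 0.15). The glutamate receptor subunit GRIN2B fell by 5.43 (SE 0.24). Axon guidance genes were mixed, with 14 of 34 lower and 4 higher. SEMA6A and PLXNC1 fell by 2.11 and 2.35, whereas SLIT3 rose from 33.9, 49.6 and 34.1 to 648, 528 and 718 CPM (4.01, SE 0.17). Among 52 clustered protocadherins, whose sequences are alike enough that reads may be split between copies, 18 were lower and 3 higher.

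Pluripotency genes were still read in NC at this age and were lower in sh4. Of 20 tested, 19 fell and none rose (median -4.73). The lower count was 19 in each fit that left out 1 library, and 1 member was called higher without NC replicate 1. POU5F1, which encodes OCT4, stood at 308, 187 and 198 CPM in NC and at 1.04, 0.94 and 0.06 CPM in sh4 (-8.41, SE 0.50, adjusted p 8.9e-07). LIN28A fell from 250, 215 and 256 to 9.55, 15.5 and 7.13 CPM (-4.48, SE 0.23). NANOG, named after its values were seen, had 861 counts in NC and 2 in sh4. DNMT3B, the de novo DNA methyltransferase of pluripotent cells, fell from 341, 199 and 238 to 33.7, 40.7 and 29.7 CPM (-2.90, SE 0.19). NC replicate 1 was the highest NC library for POU5F1 and DNMT3B. The sh1 libraries gave the same count for this list, with 19 of 20 lower than NC against 7.92% of all genes, and they share the NC libraries with this comparison.

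**Figure D4:**
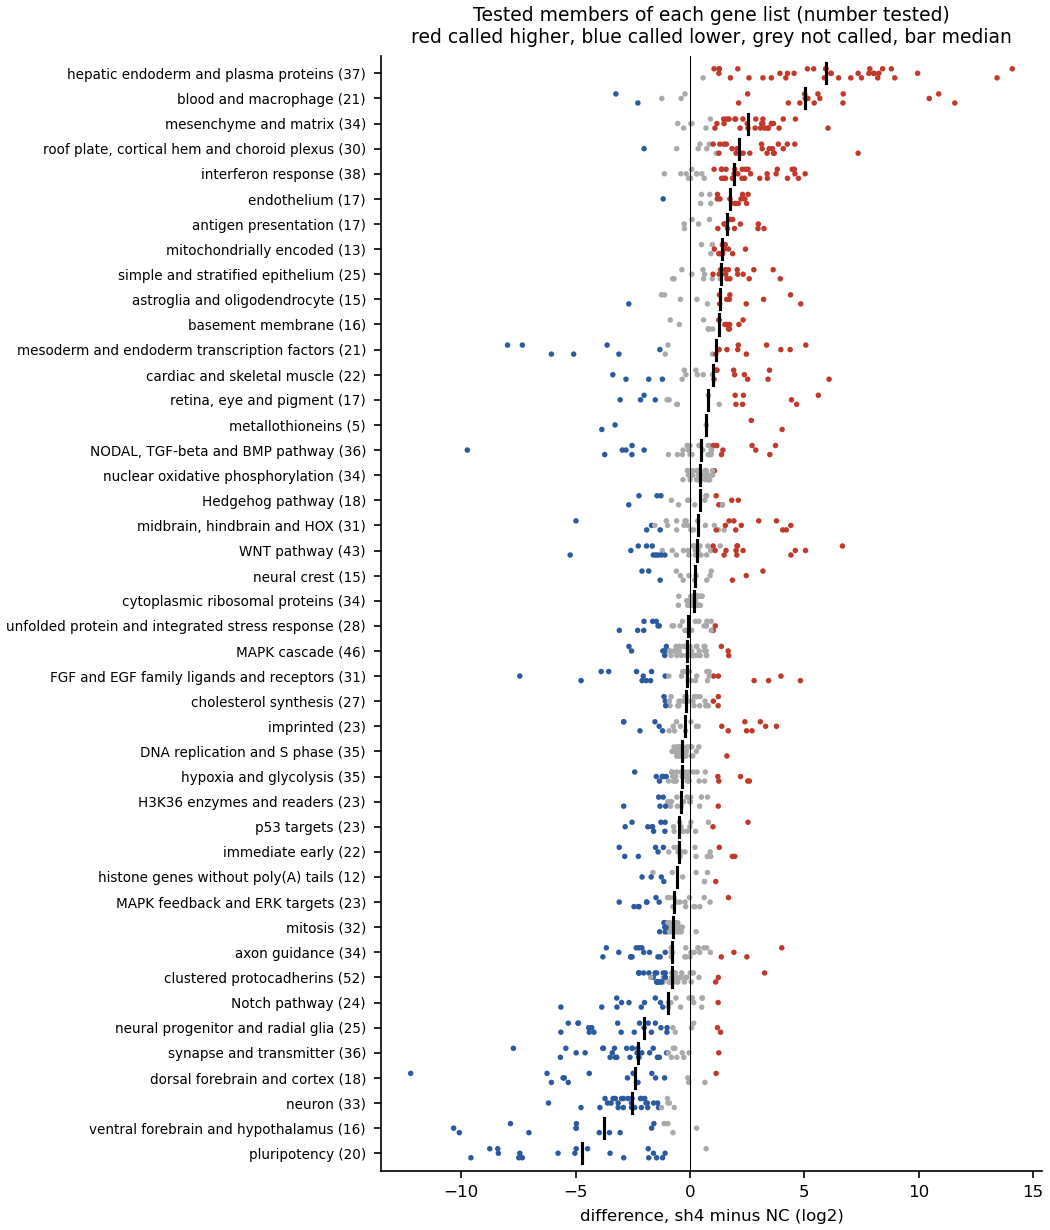
Each row is 1 gene list with the number of members tested, each point 1 member's sh4 minus NC difference (log2), and the black bar the list's median. Hepatic and plasma protein genes (median 5.94) stand at the top and pluripotency genes (median -4.73) at the bottom, and the ribosomal protein genes cluster near 0. Points of genes without counts in 1 group depend on the fit's prior count.

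Innate immune genes rose together. Of 38 interferon response genes, 28 rose and none fell (median 1.94). IFIH1, the cytoplasmic RNA sensor MDA5, went from 0.61, 1.12 and 1.17 to 20.8, 19.5 and 24.2 CPM (4.47, SE 0.23). The membrane proteins IFITM3 and BST2 went from 128 ± 9.4 to 619 ± 71 CPM and from 164 ± 12.3 to 480 ± 56.2 CPM. Of 17 antigen presentation genes, 12 rose and none fell (median 1.63). B2M, the light chain of MHC class I, was read at 121, 133 and 127 CPM in NC and at 1140, 884 and 956 CPM in sh4 (2.97, SE 0.13). Macrophage genes rose in the same libraries, and their part in these levels was not tested. An interferon gene was called lower without NC replicate 2.

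Signalling lists moved in part. The series title names MAPK signalling. Among 46 genes of the MAPK cascade, 6 fell and 3 rose (median -0.13), set against 15.5% and 20% of all genes. NF1, which restrains RAS, fell from 216, 207 and 192 to 91.8, 97.9 and 92.6 CPM (-1.12, SE 0.07), and the kinase gene MAPK8 fell by 1.11 (SE 0.08). BRAF was at 74.3 ± 2.1 and 39.6 ± 1.5 CPM, a difference of -0.91 that did not reach the fold threshold. Among 23 feedback inhibitors and targets of ERK, the kinase at the end of the cascade, 8 fell and 1 rose (median -0.70). EPHA4 fell by 2.45 (SE 0.15), SPRED2 stood at -0.89 (SE 0.08), and IER3 rose by 1.68 (SE 0.17). With library size alone the lower counts were 10 for the cascade and 11 for the feedback list. Of 31 FGF and EGF family genes, 11 fell and 6 rose. FGF2 fell from 64.6, 61.7 and 61.6 to 12.8, 14.6 and 16.4 CPM (-2.10, SE 0.10), whereas the mesenchymal ligand FGF7 rose from 1.36 ± 0.15 to 9.49 ± 0.03 CPM (2.80, SE 0.21). Among 22 immediate early genes 6 fell and 3 rose. JUND fell by 1.51 (SE 0.09) and NR4A1 by 2.26 (SE 0.16), and MYC rose by 1.28 (SE 0.13).

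Genes of the WNT, TGF-beta and Hedgehog pathways were called in both directions, while 20% of all genes were called higher and 15.5% lower. Of 43 WNT pathway genes, 13 rose and 10 fell. DKK2, a secreted WNT antagonist, rose from 0.72, 0.85 and 0.76 to 69.2, 76.2 and 93.2 CPM (6.66, SE 0.22), and FRZB, another, from 101 ± 26.3 CPM to 2960, 2143 and 2264 CPM (4.60, SE 0.32). The receptor gene FZD8 and the ligand gene WNT7A, both of forebrain progenitors, fell by 2.27 (SE 0.09) and by 5.24 (SE 0.35). Of 36 NODAL, TGF-beta and BMP genes, 9 rose and 7 fell, counts near the 20% and 15.5% of all genes. Among them were TGFB3 up by 3.74 (SE 0.16) and ID4 down to 36.7 ± 10.3 from 214 ± 19 CPM. Of 18 Hedgehog genes 5 rose and 4 fell, with 3 higher under library size alone. GLI3 fell by 1.27 (SE 0.10).

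The other enzymes and readers of H3K36 methylation were measured beside KDM2A. Of 23 tested, 5 fell and 1 rose (median -0.39), against 15.5% and 20% of all genes. With library size alone, 9 were lower. NSD3, which writes the dimethyl mark, fell from 298, 299 and 276 to 102, 122 and 126 CPM (-1.32, SE 0.09, adjusted p 1.5e-06). KDM4B, which removes the trimethyl mark, was at 129 ± 6.9 and 65.7 ± 2.6 CPM (-0.97, just short of the fold threshold). DNMT3B, whose PWWP domain reads the mark, fell as given above, and the methyltransferase gene SMYD2 rose by 1.23 (SE 0.11), or 0.95 with library size alone, which is short of the threshold.

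Imprinted genes were called in both directions, with 8 of 23 higher and 6 lower (median -0.20), against 20% and 15.5% of all genes. The members named here all rose, and the lower ones are not named. IGF2, which took 1.10% to 1.29% of all counts in sh4, went from 1554, 1845 and 1504 to 15379, 11845 and 14007 CPM (3.07, SE 0.17). DLK1 rose by 3.78 (SE 0.20), PLAGL1 by 2.40 (SE 0.13) and MEST by 1.39 (SE 0.09). Of the 13 protein-coding genes of the mitochondrial genome, 10 rose and none fell (median 1.41). MT-CO3 went from 2587, 2462 and 3101 to 8980, 7640 and 6557 CPM (1.51, SE 0.13). Nuclear genes of oxidative phosphorylation had a median of 0.43, and 1 of 34 was called (NDUFA1, 1.07; 0.78 with library size alone and 0.97 without sh4 replicate 1, both short of the threshold). Cytoplasmic ribosomal protein genes had a median of 0.19 with none of 34 called by edgeR, although 17 were above and 3 below NC at an adjusted p under 0.05 alone. The shift of all genes with library size alone is larger than this median. EEF1A1, a translation factor among the most abundant genes, was at 15107 ± 168 and 15387 ± 717 CPM, a difference of 0.03 that turned to -0.25 with library size alone.

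The cell cycle, stress and metabolic lists below had medians from -0.75 to -0.11, while 20% of all genes were called higher and 15.5% lower. Lower calls among mitosis, p53 and stress response genes were more frequent than that share in this fit. Of 32 mitosis genes, 10 fell and none rose (median -0.75). PLK1 fell from 76.1, 65.6 and 79.3 to 23.8, 33.9 and 30.1 CPM (-1.33, SE 0.16). Without sh4 replicate 1, 3 mitosis genes were called, and with library size alone 16. Of 35 DNA replication genes, none fell and 1 rose, the cyclin CCNE1 (1.61, SE 0.16). Among 23 targets of p53, 9 fell and 2 rose, with 1 higher when NC replicate 1 or 3 or sh4 replicate 2 or 3 was left out. PMAIP1, the BH3-only gene NOXA, went from 57.5, 41.0 and 39.3 to 6.36, 5.88 and 7.01 CPM (-2.84, SE 0.19), and GDF15 fell by 1.66 (SE 0.11). Of 28 unfolded protein and integrated stress response genes, 8 fell and 2 rose, with 1 higher without NC replicate 1 and 4 without NC replicate 2 or sh4 replicate 3. The amino acid synthesis genes ASNS and PSAT1 fell by 2.29 (SE 0.11) and by 2.01 (SE 0.14). The chaperone gene CALR rose by 1.10 (SE 0.08), or by 0.82 with library size alone. In cholesterol synthesis 3 of 27 genes fell and 3 rose. The regulator SREBF2 fell from 689, 648 and 646 to 302, 330 and 315 CPM (-1.07, SE 0.07). In this list 6 were lower without sh4 replicate 1, and 6 lower and none higher with library size alone. Hypoxia and glycolysis genes were 5 higher and 6 lower of 35 (3 and 10 with library size alone), near the 20% and 15.5% of all genes. Among them were the lactate transporter SLC16A3 up by 2.52 (SE 0.21) and the neuronal enolase ENO2 down to 79.7 ± 18 from 427 ± 29 CPM.

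The sh4-labelled organoids were also compared with the sh1-labelled organoids, the second hairpin against the same gene. Of 19704 genes, 3748 (19%) differed, with 2205 (11.2%) higher and 1543 (7.83%) lower in sh4. With library size alone these were 1702 higher and 2288 lower. The sh1-labelled organoids also differed from the same NC libraries, with 3946 genes (20%) called, 2385 higher and 1561 lower. Examples picked after their values were seen show changes that both hairpins had. In sh1 against NC, HOXC6 rose by 3.75, HTR2C by 3.20, SULF1 by 4.15 and TTR by 5.24, and PAX6 fell by 3.56. Others were not shared, such as KRT8 (-0.28) and KRT18 (-0.43). The liver-type list still separated the hairpins, with 32 of 37 members higher in sh4 and none lower. AFP stood at 4756, 2178 and 6774 CPM in sh1 and was 2.64 higher in sh4 on the log2 scale (SE 0.90, adjusted p 0.035). Epithelial genes were higher in sh4 in 23 of 25 cases, and KRT18 by 2.05 (adjusted p 1.5e-05). Interferon genes were higher in 18 of 38 cases. Neuronal genes were lower in sh4 in 23 of 33 cases, and neural crest genes in 8 of 15, among them S100B by -3.04 (adjusted p 1.1e-04). Pluripotency genes gave 1 of 20 higher and none lower. POU5F1 differed by 0.50 (SE 0.91, adjusted p 0.676), which does not show equal levels, since both groups were near 0. KDM2A was -0.13 in sh4 against sh1 (SE 0.07, adjusted p 0.143).

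The effect of the sh4 label was set beside that in NPCs for the 10104 genes found in both tables, of which 10020 were tested. The NPC table lists a selected set of 10221 genes. The sh4 minus NC difference itself differed between organoids and NPCs for 3973 genes (39.7%), 2311 of them more positive in organoids. In this joint fit 3189 genes (31.8%) were called in organoids and 1921 (19.2%) in NPCs. Calls in both with the same direction numbered 443, which is 13.9% of the organoid calls and 23.1% of the NPC calls. Calls in both with opposite directions numbered 706, or 22.1% and 36.8%. KDM2A differed by 0.98 (SE 0.09, adjusted p 7.1e-10), with -0.96 in NPCs and 0.03 in organoids. PTPRZ1 rose in NPCs from 61.1 ± 5.9 to 241 ± 22 CPM (SD, n = 5 each), a log2 difference of 1.99, and fell by 4.88 in organoids. SOX1 rose by 1.96 in NPCs and fell by 4.28 in organoids. POU5F1 fell in both, by 1.38 in NPCs and by 8.40 in organoids. DLK1 fell by 2.29 in NPCs and rose by 3.80 in organoids. The KDM2A mRNA level was thus lower in the NPCs of this label and not in its organoids, and the forebrain genes PTPRZ1, SOX1 and POU3F3 had opposite directions in the 2 systems. Cell system and sequencing table cannot be told apart in this comparison.

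**Figure D5:**
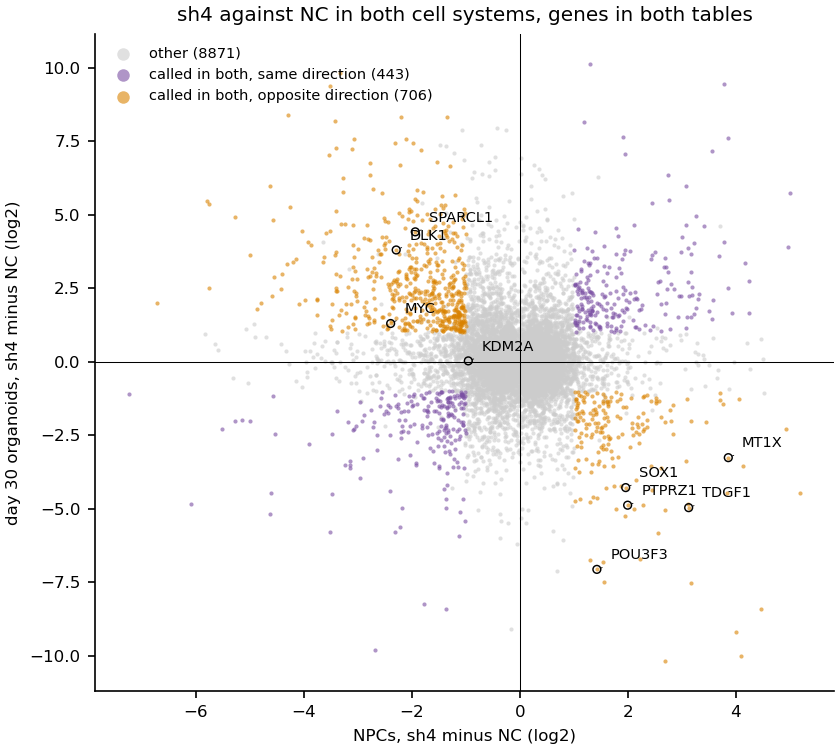
Each point is 1 of 10020 genes, with the sh4 minus NC difference (log2) in NPCs on the x axis and in day 30 organoids on the y axis. Orange points (706) were called in opposite directions and purple points (443) in the same direction. PTPRZ1, SOX1, POU3F3 and TDGF1 lie at lower right, DLK1, SPARCL1 and MYC at upper left, and KDM2A lies left of 0 on the x axis and near 0 on the y axis.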

How the data were processed

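RNA was poly(A)-selected and copied with random primers, per the labels' protocols. Reads were aligned with STAR and counted with featureCounts on GRCh38.p13, per the submitters' processing notes. The sources used here give no strand setting or annotation release. The authors deposited estimated counts per gene, 91.1% of them whole in the NC and sh4 organoid columns. They were rounded. Each library held 15899243 to 18853737 counts, which limits precision only for genes with few counts. The NPC table lists selected genes, so its sums are not library depths.

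Of 61544 Ensembl identifiers, 42085 had a symbol. Gene positions are those of GENCODE 29 (GRCh38). Counts were filtered at 10 (filterByExpr), scaled by TMM and fitted with the edgeR 4.0.16 quasi-likelihood test over all 9 organoid libraries in R 4.3.3. Benjamini-Hochberg adjustment covered all 19704 genes. A gene was called at an adjusted p under 0.05 and a log2 difference of at least 1. CPM values are TMM-scaled. Intervals are 95%, and counting intervals and the floor of 3 counts cover counting error only. The script was tested on simulated data.

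Named genes are KDM2A, the 15 highest and 15 lowest called genes, the 10 genes with the largest share of the sh4 counts and up to 4 members of each list by adjusted p. The comparison, the members and the lists were chosen with earlier results of these data known. Alternatives tried were scaling by library size, RLE factors, DESeq2 1.42.0, 2 other filters, the 6 libraries alone, a replicate block, each library left out and, added after seeing the data, scaling without mitochondrial and the 10 most abundant genes and leaving out libraries of the joint NPC fit. Some genes that the rule names are not reported here.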

Additional observations from a re-analysis of the deposited data

Results flagged for a closer look

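The effect of the sh4 label against NC differed between organoids and NPCs in a test of the difference itself (edgeR, adjusted over 10020 genes) for KDM2A and for named genes of the organoid comparison. Values are organoid minus NPC log2 differences. The difference was 0.98 for KDM2A, whose 5 NC and 5 sh4 NPC libraries held no outlying value. Among the genes with the largest organoid changes it was 8.93 for SERPINA1, -7.02 for POU5F1, -8.49 for POU3F3, -4.79 for FUT9, -5.33 for LHX2, -8.09 for TDGF1, -5.87 for POU3F2 and -6.87 for PTPRZ1.

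Of 113 named genes found in both tables, 23 were called in opposite directions, against 706 of all 10020 genes tested. Most named genes were chosen by their change in organoids, so the counts are not comparable. POU3F3, TDGF1 and PTPRZ1, given above, are among them. Genes lower in organoids and higher in NPCs were DNMT3B at -3.94, FGF19 at -7.68, SOX1 at -6.24, DPYSL3 at -4.93, SYN3 at -4.84, GBX2 at -7.10, FZD8 at -3.74 and the metallothionein MT1X at -7.12. Genes higher in organoids and lower in NPCs were MYC at 3.69, HTR2C at 5.41, OCA2 at 4.19, SPARCL1 at 6.35, MBP at 4.59, S100B at 5.20, VTN at 10.57, OSR1 at 5.76, CLDN4 at 3.61, IFIH1 at 5.86, SLIT3 at 5.85 and DLK1 at 6.09.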

How the results depend on the processing

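Of 4140 values recomputed under the alternatives, 4035 kept their direction and side of the threshold, or stayed within 1.5 times the count. The difference of KDM2A, not called, was -0.27 with library size alone, and ranged from -0.0224 to 0.0501 with single libraries left out (-0.0018 without NC replicate 1, -0.0224 without NC replicate 3, -0.0169 and -0.0012 without sh4 replicates 1 and 3). EEF1A1 turned to -0.25 with library size alone. Requiring a mean of at least 50 counts tests fewer genes and gave 4623 calls, 1959 of them lower, and for sh4 against sh1 2485 calls, 1407 of them higher. The organoid minus NPC difference of KDM2A ranged from 0.89 to 1.01 with single libraries left out and passed the fold threshold at 1.01 without NPC sh4 replicate 3. The number of calls ranged from 6726 to 7402 with single libraries left out. DESeq2 gave 6908 calls, 6854 of them shared.

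The values gave no sign that replicate numbers pair the samples. Same-numbered NC and sh4 libraries had deviations correlated at -0.041, -0.013 and -0.030, and differently numbered ones at -0.036 to 0.066. With 3 libraries per group, these values cannot settle whether same-numbered libraries share a culture or batch. A fit with the replicate block called 6899 genes, 3888 higher and 3011 lower, and 6839 were shared with the fit without it. Depth limits statements on genes near 0 counts. Medians of lists with genes at their bound were the same except for ventral forebrain, at -3.72.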
